A study of Mus musculus with 4 samples.

Results

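The genes described here mark subsets of the fibroblasts that build the connective tissue of peripheral nerve. They were taken by symbol from a gene table of mouse sciatic nerve, and all 10 were found among its 50593 genes. The epineurial group holds Pi16, Clec3b, Dpp4, Cd34, Ly6a and Thy1, and the endoneurial group holds Osr2, Sox9, Smoc2 and Etv1. RNA was sequenced from sciatic nerve of 6-month-old mice, with 2 samples labelled HSF V30M and 2 labelled HSF WT, while the methods give n = 4, which may cover both groups together. HSF V30M mice carry a human TTR V30M transgene and no functional endogenous Ttr, and HSF WT mice carry no transgene. The promoter of the transgene is not given in the sources used here. Both groups are heterozygous for deletion of Hsf1 on a 129 background, which the labels name 129S1/SvImJ, so that no mouse with both Hsf1 copies was part of the comparison. The table holds 1 value per gene and group, in FPKM, a fragment count scaled to transcript length and sequencing depth. No spread between mice can therefore be given for any value, and these group values allow no test between the groups.

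Peripheral nerve is wrapped in layers. The epineurium on the outside holds fibroblasts, fat and vessels, the perineurium encloses each fascicle as a barrier, and the endoneurium surrounds the single axons and their Schwann cells. Fibroblasts of the outer layer resemble the adventitial fibroblasts found around vessels in many organs, which express Pi16 and Dpp4 and are known as a reserve of progenitors, whereas endoneurial fibroblasts express the transcription factors Osr2, Sox9 and Etv1. In bulk tissue, fewer cells of a type and less RNA per cell cannot be told apart, and the table does not show which cells a transcript came from. Several of the genes have other known sources. For example, Cd34 and Ly6a are also made by endothelium, Thy1 by T cells and neurons, and Sox9 by cartilage. These examples are not complete, and a member without one may have other sources as well.

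The tissue carried the markers of its label. The Schwann cell gene S100b stood at 328 FPKM in HSF V30M against 201 FPKM in HSF WT, and the collagen-binding proteoglycan Dcn had 1331 and 1320. The targeted genes did not serve to check the groups. Hsf1, heterozygous in both, stood at 7.94 FPKM in HSF V30M against 15.0 FPKM in HSF WT. Mouse Ttr reached 6.10 FPKM in the group labelled HSF V30M, where it is null by design, and the HSF WT column lists it at 0. Taken as mouse Ttr, these values went against the labels, which are used as given, and whether reads of the human transgene were counted as mouse Ttr cannot be told from this table. The names HSF V30M and HSF WT below, and every direction drawn from them, stand for the groups so labelled.

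Depth was read from the lowest values of genes with 1 transcript, which fall on multiples of what 1 fragment is worth. A pair of steps was fitted in each group, read as its 2 libraries, and no other number of steps was tried. On that reading the libraries of HSF V30M lay 1.17-fold apart in depth and those of HSF WT 1.35-fold apart. The deepest HSF V30M library had 1.22-fold the depth of the deepest HSF WT library. These steps turned each FPKM into an approximate range of fragments, and the fewest fragments of the range gave a 95% interval for each fold between the groups. The interval is exact binomial and covers counting error only, without the variation between mice. For orientation, among the 15620 genes whose mean FPKM reached 1, 12691 had a coding transcript over 200 bases in the annotation to take fragments from, and 51.1% of these had an interval that excluded 1, so that an interval of this kind sets a low bar.

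Regulatory sequence of the members is shown first. The RefSeq promoter table of GRCm38.p6 held windows for 4 of the 10 members, Pi16, Dpp4, Cd34 and Etv1. Pi16 and Dpp4 are printed because they had the lowest log2 ratios among the members, and Cd34 because its level differed least between the groups. Each line gives the 250 bases before the RefSeq start, 5′ to 3′ on the strand of the gene. The window of Pi16 is chr17:29318632-29318881 on the plus strand, that of Dpp4 chr2:62412232-62412481 on the minus strand, and that of Cd34 chr1:194938571-194938820 on the plus strand. Capitals mark matches, on either strand, to the TATA box TATAAA, the NF-Y motif CCAAT, the SP1 motif GGGCGG, the short heat shock element GAANNTTC, its other arrangement TTCNNGAA, or the SOX motif AACAAT.
Pi16: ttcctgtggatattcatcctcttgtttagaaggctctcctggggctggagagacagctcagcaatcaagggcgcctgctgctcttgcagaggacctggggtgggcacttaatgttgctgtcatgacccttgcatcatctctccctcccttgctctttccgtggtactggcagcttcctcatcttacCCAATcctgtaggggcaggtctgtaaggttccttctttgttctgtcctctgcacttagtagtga
Dpp4: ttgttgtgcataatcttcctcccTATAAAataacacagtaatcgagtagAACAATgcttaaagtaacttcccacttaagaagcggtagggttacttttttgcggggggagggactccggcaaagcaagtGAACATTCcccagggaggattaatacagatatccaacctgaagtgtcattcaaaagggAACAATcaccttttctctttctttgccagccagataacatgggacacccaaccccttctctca
Cd34: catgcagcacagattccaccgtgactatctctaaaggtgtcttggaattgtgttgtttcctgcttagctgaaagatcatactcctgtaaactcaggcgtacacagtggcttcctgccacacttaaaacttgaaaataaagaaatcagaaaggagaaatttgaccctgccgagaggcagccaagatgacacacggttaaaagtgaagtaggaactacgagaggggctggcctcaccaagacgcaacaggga

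The window of Pi16 held 1 match, to CCAAT, at 64 bases before the start, and 33.8% of 32851 such windows of all genes held that motif. In the window of Dpp4, the motif GAANNTTC lay at 121 bases before the start, which 6.69% of windows held. The same window held AACAAT at 201 and at 63 bases, a motif in 9.42% of windows, and TATAAA at 227 bases, a motif in 12.4%. No match to any of the 6 motifs was present in the Cd34 window. No searched motif was present in the windows of both Pi16 and Dpp4. Etv1 has 2 windows in the table, which are not printed because its level hardly differed. The matches are letters in a window and no measure of binding.

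The epineurial members were on balance lower in the group labelled HSF V30M. Of 6 members, 5 were lower in HSF V30M and 1 was higher, where 49.6% of the 15620 genes whose mean FPKM reached 1 were lower. Pi16 had the largest difference, and it alone passed a 1.5-fold difference on the log2(FPKM + 1) scale, a scale that understates the change of low genes. In that direction 8.44% of the genes passed the same fold, and 16.7% in either direction. All 10 members, epineurial and endoneurial, had a mean FPKM of at least 1 and entered the counts.

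Pi16 encodes peptidase inhibitor 16, a protein of the CAP superfamily at the surface of adventitial fibroblasts. The gene (ENSMUSG00000024011) is annotated in GENCODE M21 of GRCm38 on the plus strand of chromosome 17 from 29317680 to 29330593, with 6 transcripts. Its locus in the authors' table is shorter, from 29318877 to 29329413, and the promoter window printed above lies inside the M21 span. It stood at 42.4 FPKM in HSF V30M against 83.0 FPKM in HSF WT. These values stand for about 962 to 4103 fragments in HSF V30M and 1337 to 6557 in HSF WT. The level in HSF WT was thus 1.96-fold that in HSF V30M, with a counting interval from 1.80 to 2.13. On the scale of FPKM + 1, its log2 ratio (HSF V30M over HSF WT) was -0.95, and 4.30% of the 15620 genes had a lower one. With a fold of 2 as the limit in place of 1.5, Pi16 and the other members did not pass, whereas 3.94% of the genes passed in the lower direction, 3.98% in the higher and 7.92% in either. The annotation has a gene on the opposite strand of the Pi16 locus, AC162182.1, and whether the libraries kept strand is not given in the sources used here.

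Clec3b and Ly6a had smaller differences of similar size. Clec3b, which encodes the plasminogen-binding lectin tetranectin, lies on chromosome 9 from 123150946 to 123157432 and has 1 transcript of 992 bases. It stood at 82.5 FPKM in HSF V30M against 100.9 FPKM in HSF WT, a level 1.22-fold higher in HSF WT with a counting interval from 1.13 to 1.32. Ly6a, the gene of the progenitor surface antigen Sca-1, lies on chromosome 15 from 74994877 to 74998031. It stood at 73.3 FPKM in HSF V30M against 90.5 FPKM in HSF WT, or 1.23-fold higher in HSF WT, with an interval from 1.13 to 1.35. Both intervals lay outside 1 and well inside a 1.5-fold difference. Ly6a belongs to a cluster of related Ly6 genes, so that reads shared with its relatives could be split between them.

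Dpp4 was the lowest epineurial member. It encodes dipeptidyl peptidase 4, a membrane enzyme that trims chemokines and incretin hormones, and lies on the minus strand of chromosome 2 from 62330073 to 62412231. It stood at 5.94 FPKM in HSF V30M against 7.94 FPKM in HSF WT, from about 654 to 768 fragments and 621 to 839 fragments. The level was 1.34-fold higher in HSF WT, with a counting interval from 1.20 to 1.49. The table places Dpp4 in a locus with 3 other genes. Gm13561 overlaps it on the opposite strand, at 0.43 FPKM in HSF V30M against 0.866 FPKM in HSF WT.

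Cd34 and Thy1 did not differ beyond counting error. Cd34, a sialomucin of fibroblasts, endothelium and blood progenitors on chromosome 1 from 194938819 to 194961279, stood at 52.9 FPKM in HSF V30M against 54.0 FPKM in HSF WT. The fold of HSF V30M over HSF WT was 0.980, with an interval from 0.923 to 1.04. Its locus in the table holds 12 genes, among them Gm16897 on the opposite strand, at 0.92 FPKM and 1.01 FPKM. Thy1, the surface glycoprotein CD90 on chromosome 9 from 44043384 to 44048579, was the only epineurial member above HSF WT, with 44.2 FPKM in HSF V30M against 40.5 FPKM in HSF WT. Its fold was 1.09, and its interval from 0.888 to 1.35 was the widest among the epineurial members. Both genes have further sources in nerve, whose markers differed between the groups. Endothelial markers summed to 401 FPKM in HSF V30M against 308 FPKM in HSF WT, T cell markers to 5.60 and 18.2, and axon and neuron markers to 117 and 67.1. The axon and neuron sums rest mostly on Uchl1, with 86.95 and 43.4. Of the 8 axon and neuron markers with a mean of at least 1, 5 were higher and 3 lower. Among the 10 endothelial markers, 7 were higher, Cldn5 and Vwf the most, and 3 were lower, Pecam1 the most. The part of these or other cells, lymphocytes included, in the levels of Cd34, Ly6a, Thy1, Dpp4 or any other member was not tested.

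**Figure D1:**
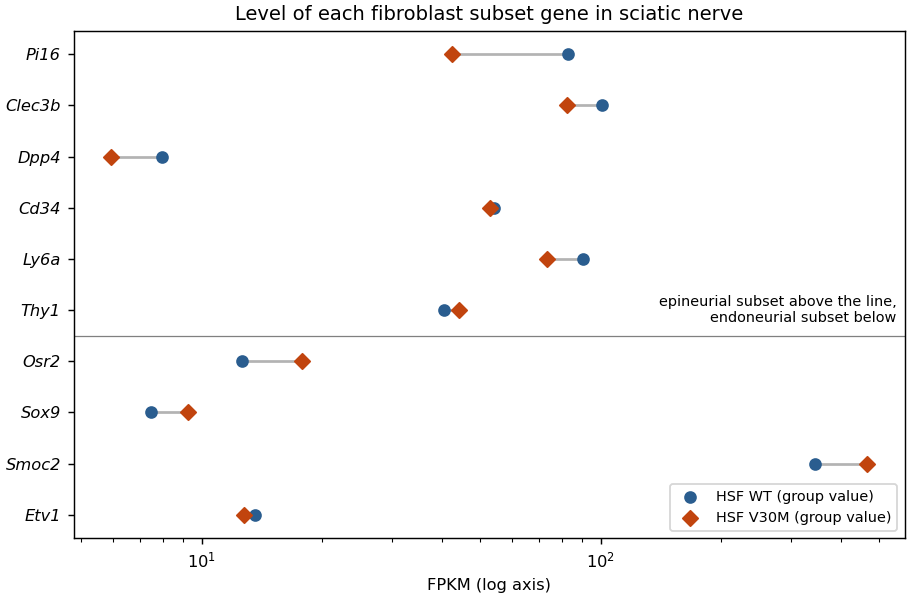
FPKM (log axis) of the 10 fibroblast subset genes, with 1 group value for HSF V30M (diamonds) and 1 for HSF WT (circles), and no spread between mice. Pi16 has the widest gap, from 42.4 in HSF V30M to 83.0 in HSF WT, and Osr2, Sox9 and Smoc2 lie to the right in HSF V30M.

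The endoneurial members leaned the other way. Osr2, Smoc2 and Sox9 were higher in the group labelled HSF V30M, Etv1 was slightly lower, and none of the 4 passed a 1.5-fold difference, which 8.22% of the genes passed in the higher direction. Among all genes tested, 50.4% were higher by any amount.

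Osr2 encodes odd-skipped related 2, a zinc finger transcription factor of mesenchyme. The gene (ENSMUSG00000022330) lies on chromosome 15 from 35296098 to 35303305. It stood at 17.8 FPKM in HSF V30M against 12.6 FPKM in HSF WT, from some 435 to 693 fragments in the former and 219 to 400 in the latter. The fold of 1.41 was the largest of the endoneurial members, with a counting interval from 1.20 to 1.67.

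Smoc2 encodes a secreted calcium-binding matrix protein of the SPARC family and was the most abundant member. It lies on chromosome 17 from 14279506 to 14404790, and it stood at 464.8 FPKM in HSF V30M against 344 FPKM in HSF WT. These levels put Smoc2 above 98.3% and 98.1% of the genes tested. Its fold of 1.35 had the narrowest interval among the endoneurial members, from 1.28 to 1.42. The gene 4930474M22Rik is annotated on the opposite strand of its locus.

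Sox9, an HMG-box transcription factor required for cartilage, stood at 9.26 FPKM in HSF V30M against 7.47 FPKM in HSF WT on its single transcript of 4135 bases. Its position is chromosome 11 from 112782224 to 112787760. The fold was 1.24, with an interval from 1.104 to 1.40. Cartilage genes that Sox9 is known to control, named here after their values were seen, were low except for Comp. Comp had 14.6 FPKM in HSF V30M against 24.9 FPKM in HSF WT, and Col9a1 had 0.18 and 0.210. The part of cartilage in the level of Sox9 was not tested. Acan stood at 0.06 FPKM in HSF V30M against 0.0406 FPKM in HSF WT, Matn1 is listed at 0 in HSF V30M, and Col2a1 had 2.77 and 1.92. Etv1, an ETS factor of neurons and mesenchyme on chromosome 12 from 38779380 to 38870484, stood at 12.8 FPKM in HSF V30M against 13.6 FPKM in HSF WT. Its fold of 0.938, with an interval from 0.798 to 1.103, set it apart in direction from the other endoneurial members, though the difference was within counting error.

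In all, the counting interval excluded 1 for 7 of the 10 members, 4 of them lower and 3 higher in HSF V30M. The same held for 24.9% and 26.2% of the 12691 genes with such an interval in the lower and higher direction. Variation between mice, which the interval leaves out, was not measured.

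**Figure D2:**
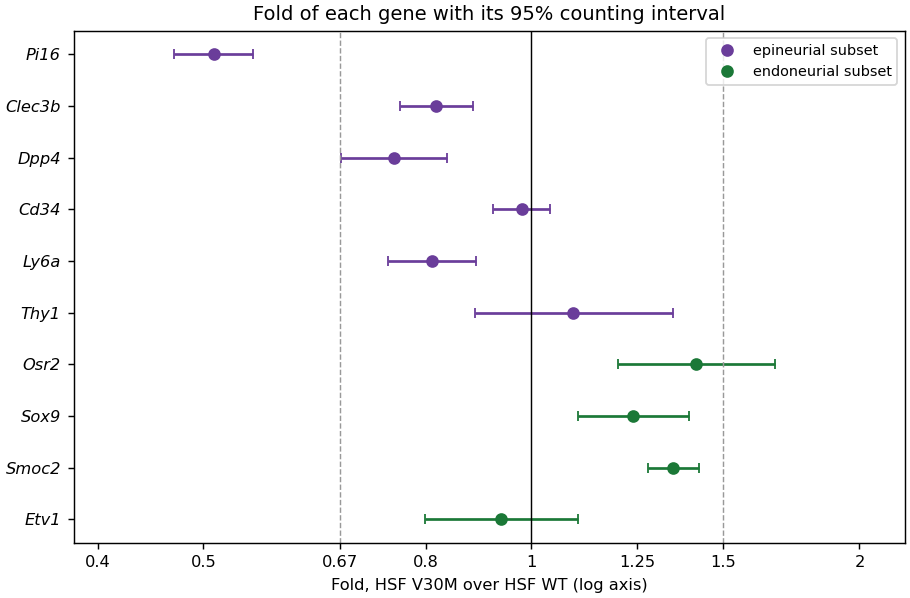
Fold of HSF V30M over HSF WT (log axis) for each gene, with bars for the 95% counting interval from the fewest fragments. Dashed lines mark a 1.5-fold difference. Pi16, at 0.511, is the one gene whose whole interval lies beyond a dashed line.

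By level, the members spanned a wide range in both groups. In HSF WT the order from high to low was Smoc2, Clec3b, Ly6a, Pi16, Cd34, Thy1, Etv1, Osr2, Dpp4 and Sox9. In this order Etv1 did not differ from Osr2 beyond counting error, with a ratio of 1.08 and an interval from 0.901 to 1.30, nor Dpp4 from Sox9, at 1.06 and from 0.941 to 1.20. In HSF V30M, Pi16 moved from rank 4 to rank 6, behind Cd34 and Thy1, and its level there did not differ from that of Thy1 beyond counting error, with a ratio of Thy1 to Pi16 of 1.04 and an interval from 0.901 to 1.20. Osr2 and Sox9 each stood 1 rank higher in HSF V30M, above Etv1 and Dpp4. Smoc2 was first in both groups, at 5.64-fold the level of Clec3b in HSF V30M and 3.42-fold in HSF WT.

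Summed over members, the epineurial and endoneurial genes differed in opposite directions. The FPKM of the epineurial members summed to 301 in HSF V30M against 377 in HSF WT, and that of the endoneurial members to 505 and 378. The endoneurial sum was thus 1.68 times the epineurial sum in HSF V30M and 1.004 times in HSF WT. Smoc2 made up 92.1% and 91.1% of the endoneurial sum, so these ratios rest mostly on it. With geometric means, which weight the genes equally, the endoneurial to epineurial ratio was 0.805 in HSF V30M against 0.531 in HSF WT, a change of 1.52-fold. It was 1.47-fold without Smoc2, 1.39-fold without Pi16, and 1.34-fold without both. The further fibroblast genes described below did not differ in opposite directions by sum. Their endoneurial sum in HSF V30M was 0.960-fold that in HSF WT, resting mostly on Apod, and their epineurial sum 0.892-fold. By median log2 ratio they stood at 0.08 and -0.28.

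Relative to genes listed here as common to fibroblasts (pan-fibroblast), which give no level per fibroblast, the counts depended on the gene used as the base. Division by a base shifts the fold of every gene by the same factor and leaves their order as it was. Pdgfra, the receptor commonly used to mark nerve fibroblasts, was itself lower in HSF V30M, with an FPKM of 45.3 against 62.3 in HSF WT. Over Pdgfra, 4 members were higher past 1.5-fold in HSF V30M, Osr2 at 1.95-fold, Smoc2 at 1.86-fold, Sox9 at 1.71-fold and Thy1 at 1.504-fold, and no member was lower past it. On that base 37.6% of the 15620 genes were higher past the fold and 5.51% lower. Pi16 over Pdgfra went from 1.33 in HSF WT to 0.936 in HSF V30M, a fold of 0.703. Col1a1, a chain of type I collagen, was higher in HSF V30M, with 181 against 152. Over Col1a1, Pi16 at 0.427 and Dpp4 at 0.626 were lower past the fold and no member was higher, against 20.6% of the genes lower and 6.88% higher. Over Dcn, which hardly differed, and over the median of the pan-fibroblast genes, Pi16 alone passed, at 0.507 and 0.482. The shares of all genes were 11.4% lower and 11.0% higher over Dcn, and 13.3% lower and 9.53% higher over that median.

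**Figure D3:**
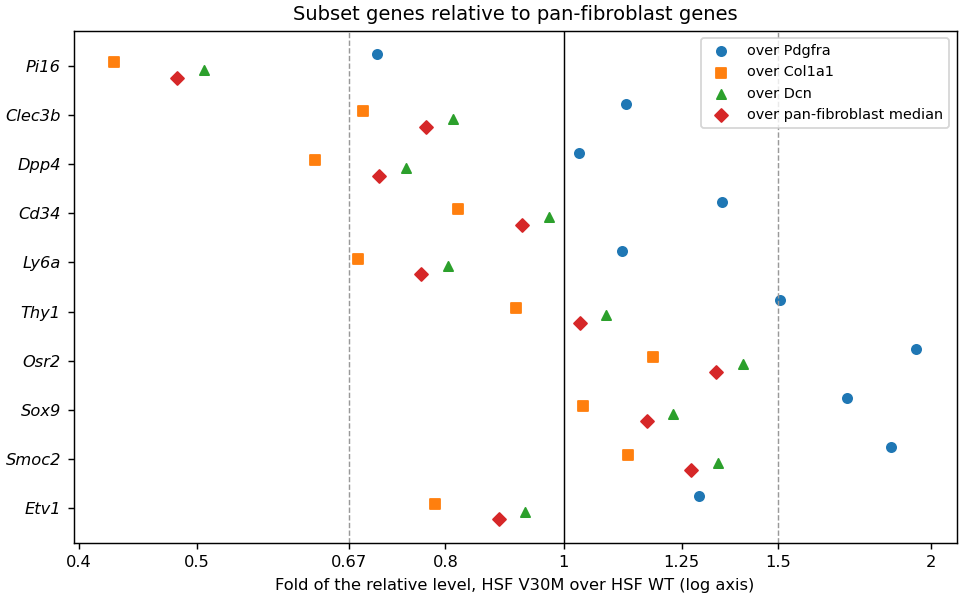
Fold of HSF V30M over HSF WT (log axis) for each gene after division by Pdgfra, Col1a1, Dcn or the median of 12 pan-fibroblast genes. Each base moves all genes by 1 factor, which takes Pi16 from 0.427 over Col1a1 to 0.703 over Pdgfra.

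Other genes of the same fibroblasts, listed with earlier results of these data known, are set beside the members. Among 18 further genes of epineurial and adventitial fibroblasts, 12 were lower and 6 higher in HSF V30M, with a median log2 ratio of -0.28 against 0.00 over all genes tested. None was higher past 1.5-fold and 3 were lower past it. Comp, a matrix protein of tendon and adventitia, stood at 14.6 FPKM in HSF V30M against 24.9 FPKM in HSF WT. Pcolce2, an enhancer of procollagen processing, had 8.91 and 15.2, and the secreted Wnt modulator Sfrp2 had 12.8 and 20.6. The most abundant of the 18, Igfbp6, an IGF-binding protein, had 411.6 and 506. With a pseudocount of 0.1, 6 were lower past the fold, while the number over all genes went from 1319 to 1692.

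The 8 further endoneurial genes were evenly split. Of these, 4 were higher and 4 lower, with a median log2 ratio of 0.08. The Wnt inhibitor Wif1 was the one higher past 1.5-fold, with 5.16 FPKM in HSF V30M against 1.30 FPKM in HSF WT. The cell cycle inhibitor gene Cdkn2a was lower past it, with 5.23 and 9.69, and 3 were lower with a pseudocount of 0.1. The lipocalin gene Apod, with 2878 FPKM in HSF V30M against 3018 FPKM in HSF WT, was the most abundant.

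Among 12 pan-fibroblast genes, 7 were lower and 5 higher, with a median log2 ratio of -0.12. Only Dpt, which encodes the matrix protein dermatopontin, passed 1.5-fold, with 33.7 FPKM in HSF V30M against 64.7 FPKM in HSF WT, a difference close in size to that of Pi16. Vim, the intermediate filament gene, was the most abundant, with 1779 and 1410. Of the 8 genes of perineurial cells, which line the fascicle, 5 were higher and 3 lower. Tenm2 and Msln were higher past the fold, with 42.2 against 26.4 and 39.5 against 24.7, while Moxd1 was lower, with 2.48 against 6.24. The most abundant perineurial gene, the integrin chain Itgb4, had 309.6 and 257.

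**Figure D4:**
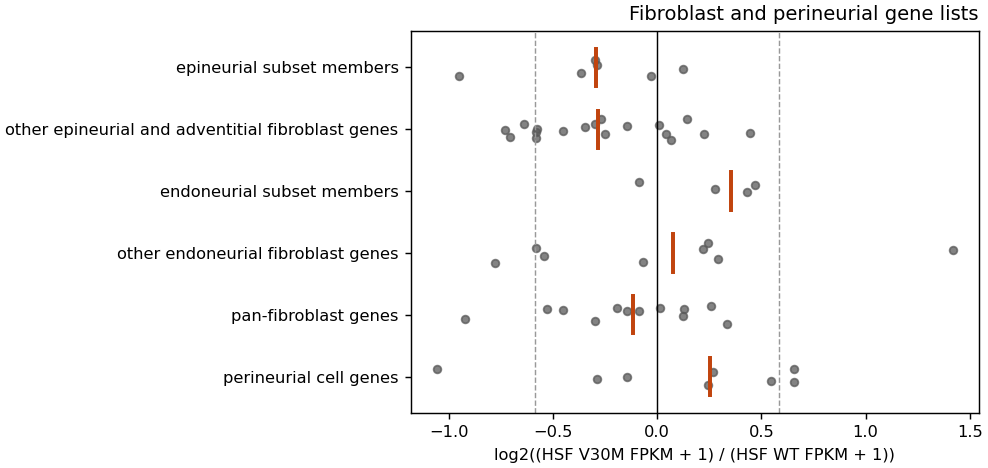
Log2 ratio on FPKM + 1 (HSF V30M over HSF WT) for each gene (points) of 6 fibroblast and perineurial lists, with the list median (bar) and dashed lines at 1.5-fold. Both epineurial lists have medians near -0.29 and -0.28, the endoneurial members sit at 0.35, and the further endoneurial genes spread on both sides of 0.

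Relatives of the members by family lay on both sides. Of 26 genes from the same families, 21 had a mean FPKM of at least 1, and of these 11 were higher and 10 lower, with a median log2 ratio of 0.01. Podxl, a sialomucin related to Cd34, was higher past 1.5-fold, with 22.5 FPKM in HSF V30M against 12.7 FPKM in HSF WT. Crispld1, of the CAP superfamily of Pi16, was lower, with 2.95 against 5.09. From the Ly6 family, Ly6k had 2.83 against 6.17 and Ly6d 0.08 against 2.91, while Ly6e, the most abundant relative, had 148 and 170. Clec3a, the closest relative of Clec3b, is listed at 0 in both groups.

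Of 17 known partners and targets of the members, 13 passed the minimum level. Of these, 8 were higher and 5 lower, and the median log2 ratio was 0.01. Spred2, an inhibitor of the MAP kinase pathway that acts upstream of ETS factors, was higher past the fold, with 10.1 FPKM in HSF V30M against 6.00 FPKM in HSF WT. Ada, the adenosine deaminase that binds to DPP4, was lower, with 1.69 against 3.06, as was Comp, given above. Cav1, the caveolin of endothelium, fat and fibroblasts, was the most abundant, with 569 and 503.

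Markers of neighbouring cells also differed between the groups, and several of them moved with the epineurial genes. Adipocytes lie in the epineurium, and all 7 of their markers were lower in HSF V30M, 3 of them past 1.5-fold, with a summed FPKM of 2392 in HSF V30M against 3282 in HSF WT. Of the skeletal muscle markers, 6 of 7 had a mean of at least 1, and each of these was lower past the fold, with a sum of 42.3 against 160.3. T cell markers were lower in 5 of the 5 with a mean of at least 1, 4 of them past the fold, and B cell markers in 4 of 4, all past the fold, with sums of 3.51 and 28.4. No T or B cell marker was called with a minimum mean FPKM of 5, since none reached that level. Macrophage markers summed to 93.8 and 123.7, with 5 of 7 lower and 2 past the fold. No defining marker of these cells was at 0 in either group.

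Markers of Schwann cells, axons, vessel cells, cartilage and tendon were mixed or higher, and the nerve layer they came from is not known. Of 7 Schwann cell markers outside the myelin list, S100b and Cdh2 were higher past the fold and none was lower past it, with a median log2 ratio of 0.00. Their sums of 556 and 414 rest mostly on S100b. Endothelial markers were higher in 7 of 10, Vwf and Cldn5 past the fold. Axon and neuron markers were higher in 5 of 8, Tubb3 and Uchl1 past the fold. Pericyte and smooth muscle markers were higher in 5 of 7, Rgs5 and Cnn1 past the fold, while Tagln, with 472 against 1102, and Myh11, with 17.0 against 26.3, were lower past it. The sum of the pericyte and smooth muscle markers, 730.4 against 1332, rests mostly on Tagln. Cartilage and tendon markers had 3 of 8 with a mean of at least 1, all higher, Mkx past the fold. Fmod was higher by little, with 30.6 against 30.3.

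Neutrophil and erythrocyte markers were higher in HSF V30M, unlike the sums of the lymphocyte and macrophage markers given above. Neutrophil markers summed to 104 against 26.3 with all 6 past the fold, and erythrocyte markers to 291 against 100.6 with 5 of 6 past it. The part of the amount of outer nerve tissue, fat, muscle or blood in the levels of the fibroblast genes was not tested, and with 1 value per group the tissue taken from the mice and the genotype cannot be told apart.

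**Figure D5:**
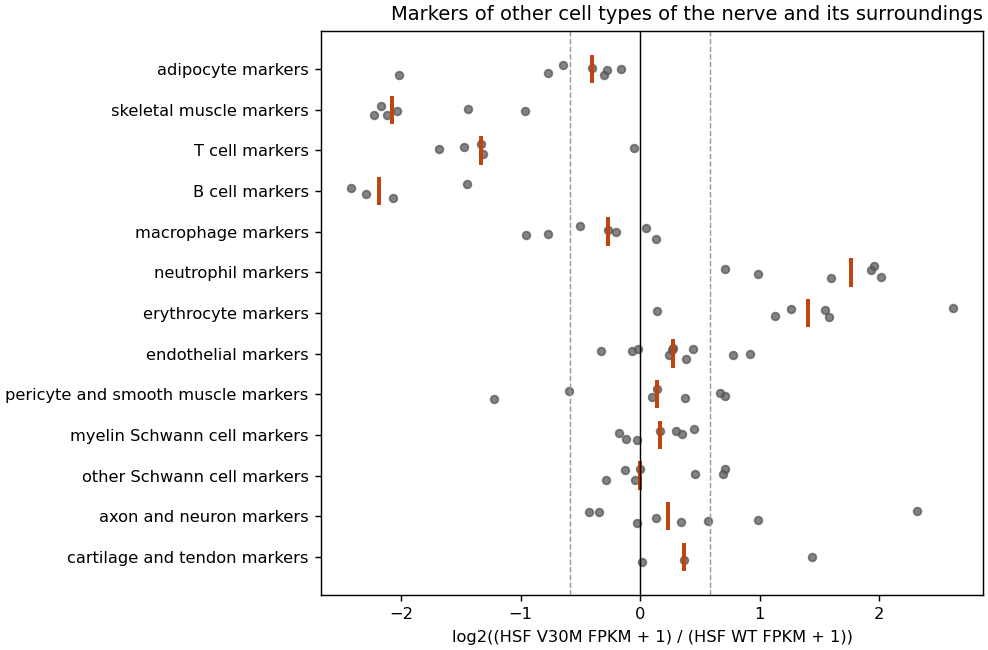
Log2 ratio on FPKM + 1 (HSF V30M over HSF WT) for marker genes whose mean FPKM reached 1 (points) of 13 other cell types, with the list median (bar) and dashed lines at 1.5-fold. Muscle, B cell and T cell markers have medians of -2.07, -2.18 and -1.33, adipocyte markers one of -0.41, and neutrophil and erythrocyte markers 1.76 and 1.40.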

How the data were processed

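RNA from sciatic nerve was sequenced with Ion Torrent protocols. For the authors, a company mapped all reads to GRCm38, and the submitters' processing notes name STAR, Cufflinks and Cuffdiff without versions. The authors deposited 1 Cuffdiff table with an FPKM value per gene and group, written with decimal commas. It also holds the authors' fold changes, p-values and q-values, which were not used. No value per mouse was analysed. The 23 genes that Cuffdiff marked as too deep to quantify were left out.

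Members and lists were chosen with earlier results of these data known. Ratios were log2((HSF V30M + 1) / (HSF WT + 1)), counted past 1.5-fold for the 15620 genes whose mean FPKM reached 1. The named genes are the members, of each list the genes past the fold and the most abundant, and Hsf1 and Ttr for the labels. Exceptions are stated, beside genes used as a base and overlapping genes. Lists had no set test, and 1 marker gene is not reported here.

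The worth of 1 fragment was fitted by maximum likelihood to genes of 1 transcript over 400 bases that share their locus with no other gene, after subtracting 200 bases from each length. The pair of steps accounted for 97.4% of 981 low values in HSF WT and 81.3% of 450 in HSF V30M, whose values are rounded. Fragment ranges run from the shortest to the longest GENCODE M21 basic coding transcript. The annotation the authors used is not given in the sources used here, and M21 holds 50369 of the gene identifiers. Scripts ran in Python 3.11.15 with scipy 1.17.1, numpy 2.4.6 and pandas 2.3.3, and figures in matplotlib 3.10.9. Fits and counts were tested on simulated data. For the fits these were built from a pair of steps, so the number of steps was not tested.

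Alternatives were a pseudocount of 0.1, a minimum mean of 5 or none, median-of-ratios scaling, a fold of 2 and other pan-fibroblast bases.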

Additional observations from a re-analysis of the deposited data

How the results depend on the processing

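No paired analysis was possible because each group has a single pooled value per gene. Leaving out a replicate was not run either, as no value per mouse was at hand. Without division by a base, 1 member was lower past 1.5-fold and 0 higher under each alternative except a fold of 2, where 0 were lower. Over all genes, 1284 were higher and 1319 lower. These counts became 732 and 646 with a minimum mean FPKM of 5, and 621 and 616 with a fold of 2, settings that are stricter by construction. Of 157 further list genes with a mean of at least 1, 25 were higher and 31 lower. With a minimum mean of 5, 18 were higher and 18 lower, and with a fold of 2, 12 were higher and 17 lower. Over Pdgfra, 4 members were higher and 0 lower past the fold, with 37.6% and 5.51% of all genes tested. Over Col1a1, 0 were higher and 2 lower, with 6.88% and 20.6%, and over Dcn and over the pan-fibroblast median 0 were higher and 1 lower. A base shifts all genes by 1 factor, so these counts move with its own difference between the groups. The log2 ratios of the 10 members moved by less than their counting interval in all 30 comparisons, which included leaving out the pseudocount, an alternative chosen after seeing the data, as were the ratios without Smoc2 and Pi16. Median-of-ratios factors were 1.001 for HSF V30M and 0.999 for HSF WT. With a pseudocount of 0.1 the counts over all genes were 1703 higher and 1692 lower. The T and B cell markers were all below an FPKM of 2 in HSF V30M, so that their folds rest on low values.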
